A study of Homo sapiens with 24 samples.

Results

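The effect of METTL3 depletion was described across all genes in androgen-treated LNCaP:C4-2, a castrate-resistant prostate cancer cell line that is sensitive to enzalutamide. Of the 24 RNA-seq libraries of the knockdown experiment, 6 belong to this comparison, chosen by their labels alone. In 3 of them METTL3 had been targeted with a pooled siRNA (siMETTL3), and the other 3 had a non-targeting pool (siSCR). Both groups were kept in charcoal-stripped serum, transfected, transfected again after 48 h and at that point given the synthetic androgen R1881 at 1 nM for 72 h. The comparison therefore describes METTL3 depletion begun 48 h before R1881 and continued through the 72 h with it. One siRNA pool per target in one line was used, and neither the labels nor the methods say whether the 3 libraries of a group came from separate cultures. The p-values therefore measure the spread between libraries, which may be technical. That spread was estimated over the 12 libraries of the line, these 6 and those given vehicle (ethanol).

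METTL3 is the catalytic subunit of the methyltransferase complex that places N6-methyladenosine (m6A) on mRNA, together with METTL14, WTAP and further subunits. Reader proteins bind m6A and alter splicing, export, translation and decay of the modified transcript. In prostate cancer cells androgen is a main driver of lineage-specific transcription. Adding R1881 induces genes such as KLK3 and FKBP5 and lowers others.

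The 6 libraries held between 16798308 and 21030473 counted fragments. Values are given as CPM, the fragments of a gene relative to the TMM-scaled size of its library. The 12 luminal prostate markers fixed for the line (KLK3, KLK2, KRT8 and others) were all detected and summed to 5241 to 5935 CPM with siSCR and 5080 to 5761 CPM with siMETTL3. Of the 8 immune markers 5 held at most 3 counts in each of the 6 libraries, PTPRC and CD3E among them, and the whole list summed to at most 1.34 CPM. Of the 8 basal markers, KRT5, TP63, NGFR and KRT6A were at that floor of 3 counts, and the list summed to 31.3 to 38.2 CPM with siSCR and 30.99 to 34.9 CPM with siMETTL3. Of 12 mesenchymal markers 7 were at the floor, and the sum, mostly COL1A1, was higher with siMETTL3 (67.5 to 72.7 CPM) than with siSCR (46.6 to 58.2 CPM). The 10 neuroendocrine markers, of which CHGA, CHGB, INSM1, SCG3 and NEUROD1 were at the floor, summed to 88.5 to 171 and 128 to 222.5 CPM. These sums were mostly ENO2, which is also on the list of glycolysis enzymes and averaged 127.6 CPM with siSCR and 179.6 CPM with siMETTL3. The 6 endothelial markers summed to 5.78 to 5.94 and 4.23 to 11.7 CPM. The part of these markers in the results was not tested.

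One library stood apart. Between siSCR replicates 2 and 3 the counts differed by a mean chi-square of 3.05 per gene, whereas replicate 1 differed from them by 30.4 and 30.8. The siMETTL3 libraries differed from each other by 5.61 to 13.97. siSCR replicate 1 also differed in the balance between GC-rich and GC-poor genes. Among protein-coding genes in the highest and the lowest of 5 equal bins of transcript GC content, the median deviation of GC-rich genes minus that of GC-poor genes, in log2 CPM centred per gene, was 0.072 in siSCR replicate 1 but −0.51 and −0.48 in replicates 2 and 3. In siMETTL3 replicates 1 to 3 it was 0.38, 0.33 and 0.21. All siMETTL3 libraries were thus further towards GC-rich genes than all siSCR libraries, with siSCR replicate 1 nearest to them. Among the vehicle libraries of the line, siMETTL3 replicate 1 stood apart in the same way. It differed by 38.5 and 41.7 per gene from replicates 2 and 3, which differed by 4.11, and its balance was −0.45 against 0.33 and 0.34. The siSCR libraries in vehicle were at 0.081, 0.042 and −0.32. What sets this balance was not tested. Values with an offset for GC content, or without either of these libraries, stand beside several of the results that they move, but not all.

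METTL3 mRNA was lower in every siMETTL3 library. It was 28.3, 31.8 and 33.5 CPM in siSCR replicates 1 to 3 and 21.05, 20.7 and 21.4 CPM in the siMETTL3 replicates. The groups did not overlap, and the mean was 32.6% lower. The log2 fold change was −0.57 with a standard error of 0.11 (edgeR quasi-likelihood test, Benjamini-Hochberg adjusted p = 0.0256), just short of the 1.5-fold threshold used for calls. An exact two-sided permutation test gave p = 0.1, the smallest that 3 libraries against 3 allow. The transcript has a GC content of 49.9%, and with the offset for GC content the value was −0.60 (edgeR adjusted p = 0.00515). METTL3 passed with siSCR replicate 1 left out (edgeR adjusted p = 0.00791) but with none of the other 5 libraries left out (up to 0.162).

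Across the genome the knockdown had a limited called effect. Of 16435 genes tested, 115 (0.7%) were differentially expressed genes (DEGs), defined by an edgeR adjusted p under 0.05 and a change of at least 1.5-fold. Of these, 46 were higher (0.28% of genes) and 69 lower (0.42%) after knockdown. Without the fold threshold 154 genes passed (0.937%). Before adjustment, 4702 genes (28.6%) had a p under 0.05, of which 2543 were higher (15.5%) and 2159 lower (13.1%). The fitted change was above 0 for 50.5% of genes, and the groups did not overlap for 5523 genes (33.6%), all 115 DEGs among them. Protein-coding genes made up 107 of the DEGs. The median absolute log2 fold change of the DEGs was 0.80, and the median of all genes was 0.00. Without siSCR replicate 1 there were 1497 DEGs of 16845 genes (8.89%, 1006 higher and 491 lower), 113 of the 115 among them, whereas leaving out any one of the other 5 libraries gave 1 to 54 DEGs. Without siMETTL3 replicate 1 in vehicle, which enters through the shared fit and filter but not the comparison itself, there were 797 DEGs (4.73%), 113 of the 115 among them, a setting chosen after seeing the data. DESeq2 called 516 (3.14%), and 107 of the 115 were among them. An edgeR fit of only the 6 R1881 libraries called 520 of 15460 genes, 340 higher and 180 lower.

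**Figure D1:**
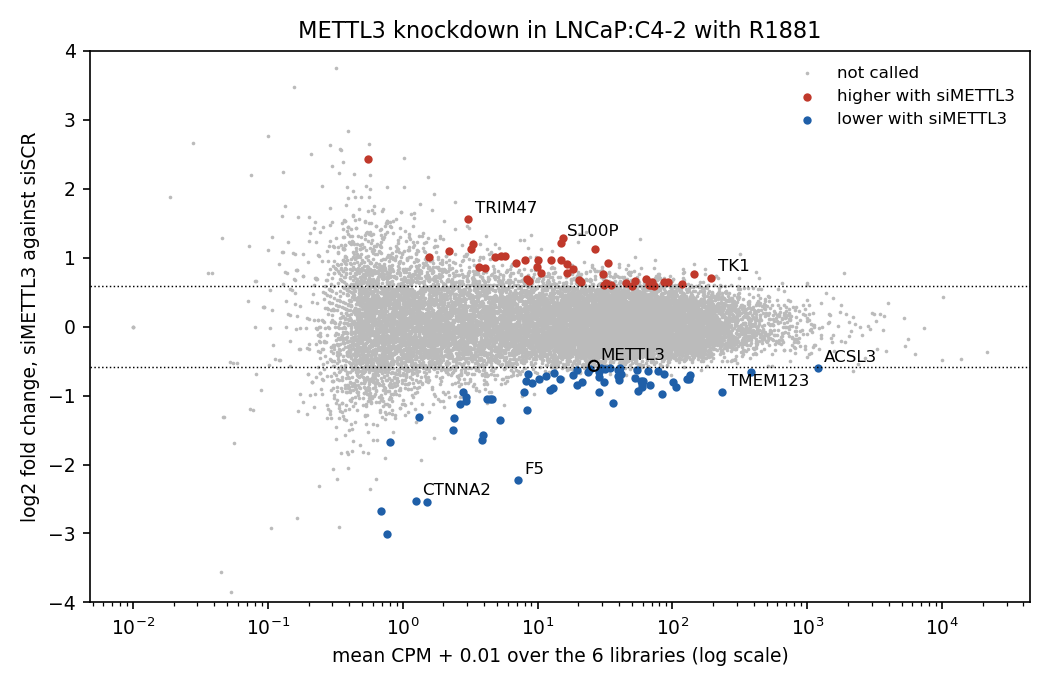
Log2 fold change of each gene (siMETTL3 against siSCR, with R1881) against its mean CPM over the 6 libraries plus 0.01, on a log axis; dotted lines mark 1.5-fold. The 46 higher DEGs (red) and 69 lower DEGs (blue) lie outside the lines, METTL3 (ring) lies just inside, and the largest changes are in genes of low abundance.

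The gene with the firmest large decrease was F5, which encodes coagulation factor V. It was 10.2, 15.8 and 9.16 CPM in the siSCR libraries and 1.84, 2.61 and 3.00 CPM in the siMETTL3 libraries. Every siMETTL3 value lay far under the lowest siSCR value. The log2 fold change was −2.23 with a standard error of 0.24 (edgeR adjusted p = 0.00216), and F5 was a DEG with each library left out in turn and with the GC offset (−2.07). In vehicle F5 averaged 0.212 CPM with siSCR and 0.143 CPM with siMETTL3, so its difference there concerns near-absent transcript.

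Several of the other strongly lowered genes shared this near-absence in vehicle. CTNNA2, the neural alpha-catenin (log2 fold change −2.53, edgeR adjusted p = 0.0228), fell from 2.13 ± 0.758 to 0.361 ± 0.16 CPM (mean ± SD, n = 3 each) and averaged 0.0351 CPM in vehicle with siSCR. SLC26A3, an intestinal chloride and bicarbonate exchanger (−1.64), fell from 5.81 ± 0.884 to 1.86 ± 0.505 CPM and was not counted in the vehicle siSCR libraries. SLC38A4, an amino acid transporter (−1.57), fell from 5.87 ± 1.80 to 1.97 ± 0.646 CPM, against 0.0517 CPM in vehicle. ORM2, an acute-phase plasma protein, and TRGC1, a T cell receptor gamma constant segment known to be transcribed in prostate epithelium, were also lower, by log2 values of −1.05 and −2.55 (adjusted p of 0.0346 and 0.0497 in edgeR). ORM2 has the near-identical copy ORM1 and TRGC1 the copy TRGC2, so their counts are uncertain. The levels with R1881 and in vehicle are set side by side here, and the siSCR libraries with R1881 enter both the androgen and the knockdown difference.

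CCDC141 (−1.06) averaged 0.368 CPM in vehicle with siSCR and 6.14 CPM with R1881.

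The other 8 of the 15 most lowered genes averaged at least 1.07 CPM in the siSCR libraries in vehicle. PART1, a prostate-enriched long non-coding RNA, fell to 1.22 ± 0.209 from 3.48 ± 0.606 CPM. FAS, the death receptor, had 1.81, 1.90 and 1.92 CPM with siSCR and 0.758, 0.800 and 0.709 CPM with siMETTL3. The axon guidance receptor EPHA7 fell by 1.21 on the log2 scale (standard error 0.19, edgeR adjusted p = 0.0109). The zinc finger genes ZNF117 and ZNF493 had log2 fold changes of −1.35 and −1.05, FAM200A −1.33, FAM218A −1.08 and UGT2B28 −1.11. Zinc finger genes of these clusters have close paralogs. With the GC offset FAS, FAM218A and CCDC141 no longer passed (edgeR adjusted p = 0.0613, 0.0726 and 0.0569).

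Among the 15 genes that rose most, TRIM47, a RING-type ubiquitin ligase, led. Its values were 1.59, 1.04 and 1.97 CPM with siSCR and 5.63, 4.42 and 3.65 CPM with siMETTL3. It rose by 1.55 on the log2 scale (standard error 0.24, edgeR adjusted p = 0.0109). The change became 1.07 with the GC offset, where it no longer passed (adjusted p = 0.0652). S100P, a calcium-binding protein, was 11.1, 7.21 and 8.57 CPM with siSCR and 23.2, 21.1 and 18.3 CPM with siMETTL3. The change of 1.22 was little altered by the offset (1.13, edgeR adjusted p = 0.00223). S100P stayed a DEG in 2 of the 6 fits that leave out 1 library.

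The other members of this group were mostly GC-rich. SAMD11 (transcript GC 69.9%) had a log2 fold change of 1.28 and 0.73 with the GC offset, and passed in both. The transcription factors KLF2, HOXC9 and PAX1 rose by 1.19, 1.03 and 0.96 on the log2 scale and passed with the offset as well, as did DNHD1 (1.02), a dynein heavy chain-like protein, the short-chain fatty acid receptor FFAR2 (1.01), CCDC183 (1.00) and AGXT (0.96), a peroxisomal aminotransferase. The taste receptor subunit TAS1R3 (1.12), the nuclease DNASE1L2 (1.09), the Wnt inhibitor NKD2 (0.97), the ciliary rootlet gene CROCC (0.96) and the growth factor receptor FGFR3 (0.92) were not called with it. In siSCR cells all of the 15 most raised genes except S100P and FGFR3 had a higher mean CPM in vehicle than with R1881. PAX1 and AGXT, for example, had means of 25.02 and 24.4 CPM against 10.03 and 6.78 CPM, and FFAR2 6.70 against 1.03 CPM. The siSCR libraries with R1881 enter both this difference and the knockdown difference.

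**Figure D2:**
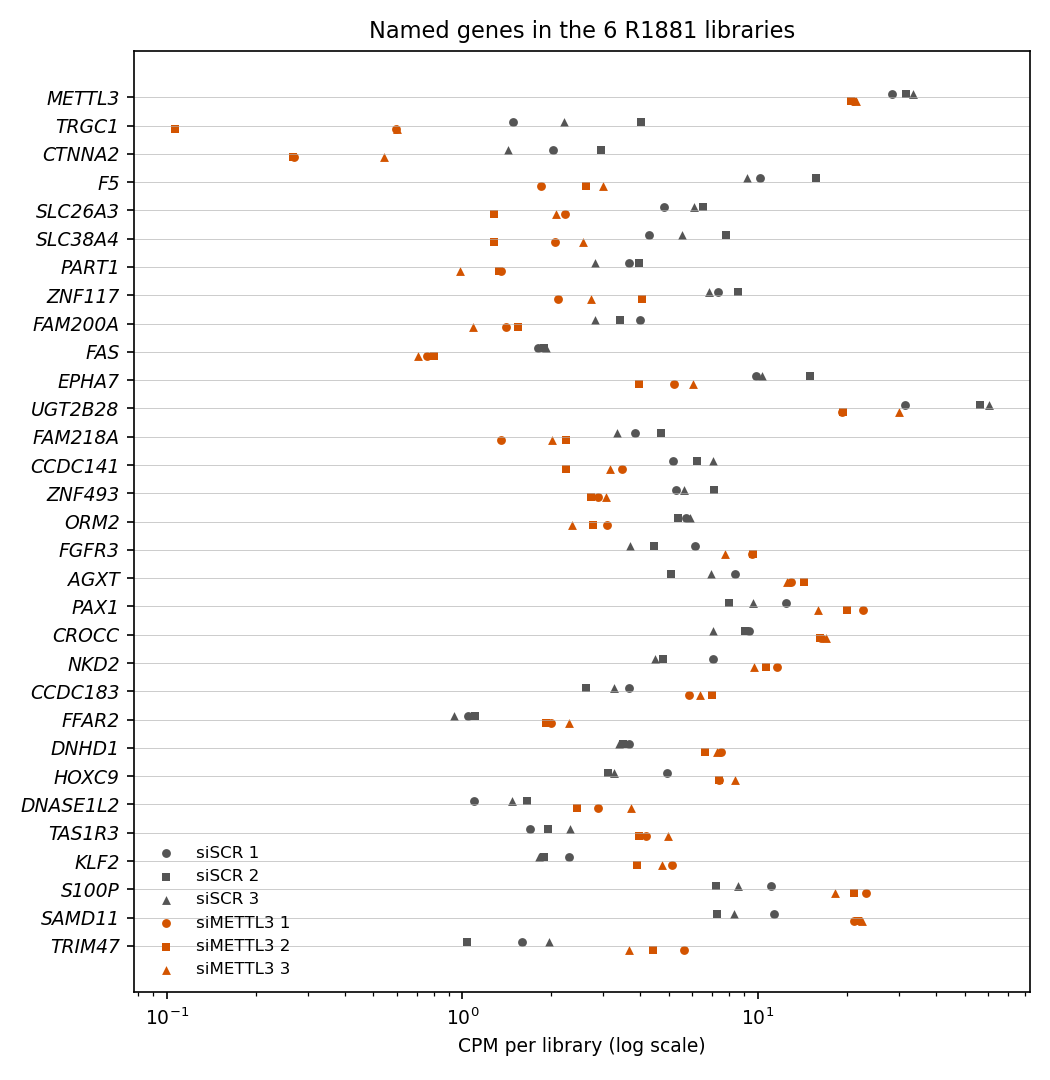
CPM of METTL3 and of the 15 most lowered and 15 most raised DEGs in each of the 6 libraries (log axis; symbols give the replicate). For each gene the siSCR (grey) and siMETTL3 (orange) points do not overlap, which the rule for naming the 30 genes required.

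The direction of change was graded by transcript GC content. The 46 higher DEGs had a median GC content of 61.1% and the 69 lower ones 39.9%, against 49.3% for all genes tested. When the 12933 protein-coding genes tested were divided into 5 equal bins from low to high GC content, the median log2 fold change was −0.27, −0.17, 0.00, 0.18 and 0.38. The lowest bin (30.7% to 40.8% GC) held 39 of the lower DEGs and 0 of the higher ones. The highest bin (59.1% to 76.0% GC) held 26 of the higher DEGs and 3 of the lower ones. In vehicle, the same bins had medians of −0.037, −0.040, −0.0065, 0.044 and 0.115, and without siMETTL3 replicate 1 they were −0.17, −0.12, −0.0061, 0.12 and 0.25. In 22Rv1 with R1881 they were −0.19, −0.13, −0.022, 0.13 and 0.24.

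Transcript length was graded as well, from a median log2 fold change of 0.156 in the shortest bin to −0.143 in the longest. The number of exons showed a smaller slope (0.114 to −0.072). For the length of the longest internal exon the bin medians, between −0.022 and 0.025, showed no steady slope. From the shortest to the longest, these bins held 6, 9, 11, 15 and 16 lower DEGs and 11, 8, 2, 10 and 9 higher ones. These gradients move with the library balance given above, and their part in single genes was not tested apart from the offset. With the GC offset the medians of the GC bins lay between −0.014 and −0.0036. Those of the length bins still ran from 0.024 to −0.035 and those of exon number from 0.054 to −0.051. For the longest internal exon the offset median was 0.024 in the first bin and −0.027 in the last. Under the offset 76 of 16235 genes were DEGs (0.468%), 50 of them among the 115. These 50 comprised 34 of the 69 lower and 16 of the 46 higher DEGs. Beside the offset, leaving out siSCR replicate 1 gave 331 DEGs (1.99%, 205 higher and 126 lower), of which 53 were among the 115, a setting chosen after seeing the data.

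**Figure D3:**
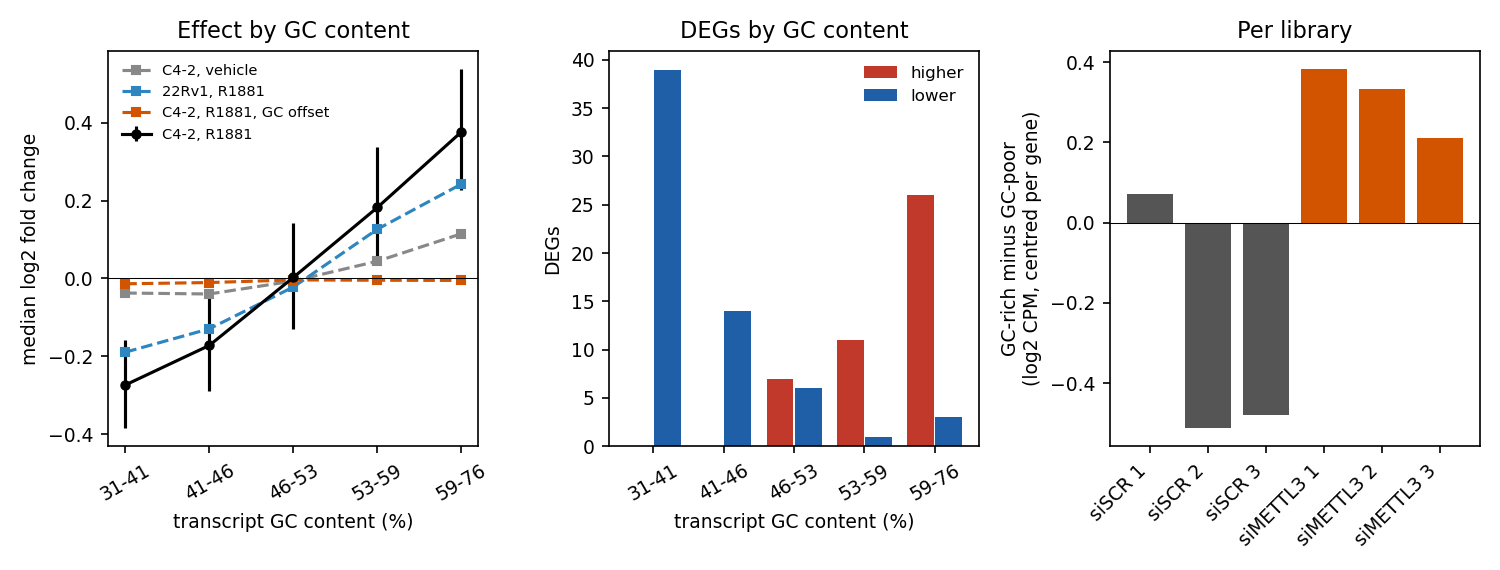
Left, median log2 fold change of protein-coding genes in 5 bins of transcript GC content (bars, quartiles; dashed lines, other comparisons and the GC offset): it climbs from −0.27 to 0.38 with R1881 and is flat with the offset. Middle, DEGs per bin; right, GC-rich minus GC-poor genes in each library, from −0.51 in siSCR replicate 2 to 0.38 in siMETTL3 replicate 1.

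A core of 18 DEGs was also called in vehicle, where the knockdown was measured in 6 other libraries of the same line. In vehicle 197 of the 16435 genes (1.2%) were DEGs, 61 of them lower (0.371%), so the 18 are 15.7% of the DEGs with R1881 and 9.14% of those in vehicle. All 18 had the same direction in both, 12 lower and 6 higher. Among all 16435 genes tested, 9985 had the same direction in both at any p. Both comparisons come from one fit with a shared estimate of the spread. Without siMETTL3 replicate 1 in vehicle there were 339 vehicle DEGs (2.01%), and 17 of the 18 were among them, CCDC141 being the exception (edgeR adjusted p = 0.0587).

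ZNF385B, a zinc finger gene, was 119.6, 138 and 126 CPM with siSCR and 70.99, 74.7 and 74.1 CPM with siMETTL3. It stayed a DEG in 5 of the 6 fits that leave out one library. The change was −0.80 on the log2 scale with R1881 and −0.74 in vehicle (adjusted p of 0.00564 and 0.00977 in edgeR). AASDHPPT, which attaches the phosphopantetheine group to fatty acid synthase and acyl carrier protein, was 61.2, 80.2 and 78.6 CPM with siSCR and 35.8, 37.9 and 41.2 CPM with siMETTL3, with log2 fold changes of −0.94 and −0.70. SLC4A7, a sodium bicarbonate cotransporter, fell from 112 ± 13.01 to 56.8 ± 4.02 CPM.

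RRP1B, a nucleolar protein, was 93.3, 96.1 and 94.2 CPM with siSCR and 55.7, 57.5 and 68.1 CPM with siMETTL3. The siSCR values lay within a few CPM of each other, and the log2 fold change was −0.65 with R1881 and −0.77 in vehicle. RRP1B stayed a DEG with R1881 in 2 of the 6 fits that leave out 1 library. VASH2, a tubulin carboxypeptidase subunit, changed by −0.85 and −0.72, the engulfment adaptor GULP1 by −0.66 and −0.62, and NAALADL2 by −0.95 and −0.62. UGT2B28, which glucuronidates androgens, was 31.4, 56.2 and 60.5 CPM with siSCR and 19.3, 19.4 and 30.1 CPM with siMETTL3, with log2 fold changes of −1.11 and −1.49. CCDC141 (−1.06 and −2.61), the histone genes H2AC11 and H3C10 and an unnamed long non-coding RNA on chromosome 4 (−0.68 and −0.77) completed the lower group.

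Of the 6 that rose in both, S100P changed by 1.22 with R1881 and 1.68 in vehicle, and FXYD3, a regulator of the sodium pump, by 0.76 and 1.28. C2orf72 was 27.3, 20.2 and 21.6 CPM with siSCR and 45.9, 44.5 and 39.9 CPM with siMETTL3 (log2 fold changes 0.92 and 1.12). The transcription factor NFATC4 (0.78 and 1.09), the integrin ITGB4 (0.67 and 0.66) and an unnamed gene on chromosome 16 (1.13 and 1.13) were the others. With the GC offset NFATC4, ITGB4 and the non-coding RNA on chromosome 4 did not pass with R1881 (edgeR adjusted p = 0.0799, 0.355 and 0.0512), nor did CCDC141, as given above, and GULP1 was under 1.5-fold (−0.39). The formal test of a difference between the knockdown effects with R1881 and in vehicle passed for 0 of 16435 genes in edgeR, with 2037 (12.4%) at an unadjusted p under 0.05, and for 57 genes in DESeq2. Genes called in one condition and not in the other are thus not shown by edgeR to differ between them.

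**Figure D4:**
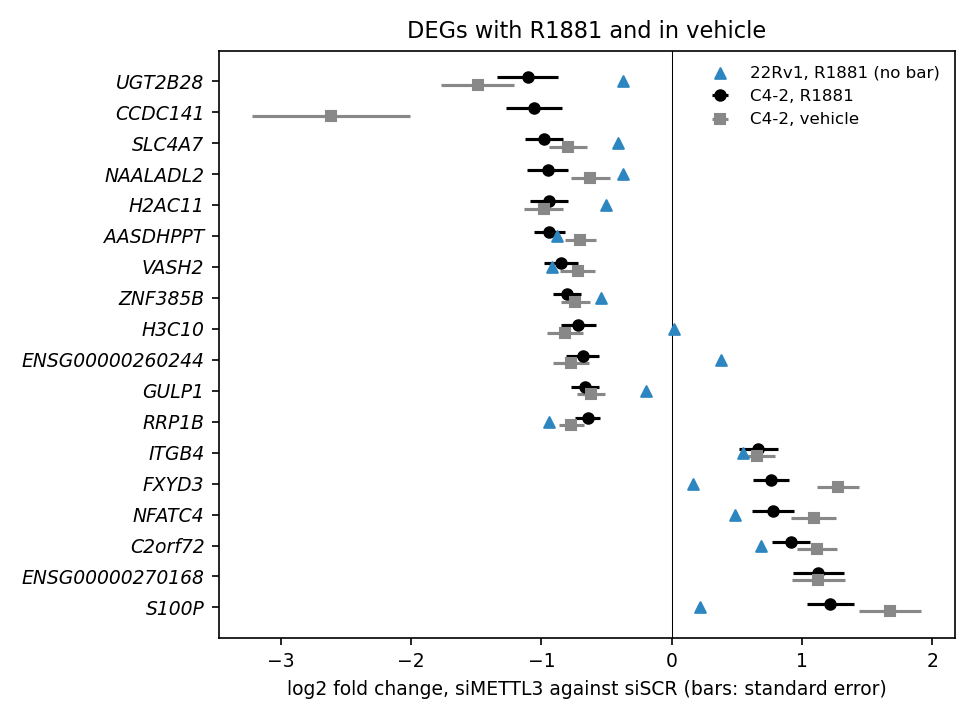
Log2 fold changes (bars, standard error) of the 18 genes that were DEGs with R1881 and in vehicle in LNCaP:C4-2, with 22Rv1 beside them where tested. The black and grey points lie on the same side of 0 for all 18, between −2.61 and 1.68.

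In 22Rv1, an enzalutamide-resistant line, METTL3 fell by 1.18 on the log2 scale with R1881, a difference between the lines that did not pass (edgeR adjusted p = 0.0712), and 587 of 17865 genes (3.29%) were DEGs. Of the 115 DEGs in LNCaP:C4-2, 106 were tested in 22Rv1, and 17 were DEGs there, which is 14.8% of the one list and 2.9% of the other. Of the 17, 11 were lower in both, 5 were higher in both (SAMD11, C2orf72, NKD2, MOB3C and CHCHD1, the last 2 named after their values were seen) and F5 had opposite directions. Among all 14985 genes tested in both lines, 11389 had the same direction at any p. AASDHPPT, RRP1B, VASH2 and C2orf72 were DEGs in all 3 comparisons. TMEM123, a transmembrane protein named here for its size of change in both lines, was 294, 308 and 315 CPM with siSCR and 159, 172 and 145 CPM with siMETTL3. It changed by −0.95 on the log2 scale in LNCaP:C4-2 and by −1.47 in 22Rv1 (adjusted p of 0.0065 and 1.29e-08 in edgeR), against −0.27 in vehicle-treated LNCaP:C4-2.

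A test of the difference between the lines, from a fit of all 24 libraries, passed for 18 of 19437 genes (0.0926%), and 6 of these were DEGs in LNCaP:C4-2. F5 rose in 22Rv1 with a log2 fold change of 0.68 and fell in LNCaP:C4-2, a difference of 2.92 (edgeR adjusted p = 4.31e-08). PART1, EPHA7, PWWP3B, which holds a PWWP chromatin-binding domain, and ALDH1A1, a retinaldehyde dehydrogenase, fell in LNCaP:C4-2 and had log2 fold changes of −0.17, −0.0042, −0.25 and 0.21 in 22Rv1. TRIM47 rose in LNCaP:C4-2 and changed by 0.25 in 22Rv1.

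A short sequence in the 3′ untranslated region (3′UTR) was chosen from 22Rv1 and then described here in LNCaP:C4-2. Among all 7-base sequences held by the 3′UTRs of at least 100 genes, CGTACTA had the lowest mean log2 fold change under knockdown in 22Rv1 with R1881 (−0.24 over 114 genes), and CCGTACT, which overlaps it by 6 bases, was the next (−0.20 over 181 genes). The sequences were searched on the transcript strand of 1 GENCODE transcript per gene. The ranking in 22Rv1 used largely the same genes under the same siRNA pool, so the shares below are not independent of the choice. Of the genes printed below, all but PLCB1 and PTPRM were also lower in 22Rv1 at an edgeR adjusted p under 0.05. PLCB1 changed by −0.16 there, and PTPRM had no value. In LNCaP:C4-2 with R1881, CCGTACT was held by 170 of 12907 genes (1.32%), by 10 of the 64 lower DEGs with a 3′UTR (15.6%) and by 0 of the 44 higher ones. CGTACTA was held by 109 genes (0.845%), 4 of the 64 lower DEGs (6.25%) and 0 of the 44 higher ones. The lower DEGs had longer transcripts, with a median of 4147.5 bases against 2738 for the higher DEGs and 2816 for all genes. The part of length in these shares was not tested.

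The sites in lower DEGs are shown because they are the matches behind these counts. Each line gives 10 bases on either side in lower case and the matched bases in capitals, 5′ to 3′ on the transcript strand, from GENCODE transcripts with GRCh38 coordinates.
COPS8 (chr2:237098069-237098095, plus strand): ccagcacatgCCGTACTcttatatgta
LIFR (chr5:38479620-38479646, minus strand): tgtatcaatcCCGTACTttatctctcc
LMBRD2 (chr5:36099483-36099509, minus strand): caagcatcttCCGTACTtagcatacca
TMEM123 (chr11:102396715-102396741, minus strand): tttcaaatacCCGTACTttgaatgtag
PIP4K2A (chr10:22535520-22535546, minus strand): gatctccctgCCGTACTgccttttcca
PTPRM (chr18:8406376-8406402, plus strand): ttgccaaatcCCGTACTccttgccacc
PLCB1 (chr20:8884348-8884374, plus strand): gtgtgaaattCCGTACTgtggtttttc
RRP1B (chr21:43693786-43693813, plus strand): accgtattcgCCGTACTAagttggtttc
SLFN5 (chr17:35269688-35269714, plus strand): agtttgcataCCGTACTcaactcttag
SLFN5 (chr17:35271304-35271330, plus strand): atatgaataaCGTACTAtaacaagaaa
VASH2 (chr1:212989390-212989416, plus strand): caagaggtcaCGTACTAttatacaaat

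RRP1B holds both sequences as one run of 8 bases, as does TGS1, which is not printed. SLFN5 holds 2 separate sites. COPS8, a subunit of the COP9 signalosome, was 71.9, 78.9 and 78.7 CPM with siSCR and 45.5, 47.7 and 39.7 CPM with siMETTL3 (log2 fold change −0.79, edgeR adjusted p = 0.00564). LIFR, the receptor of leukaemia inhibitory factor, was 125, 151 and 137 CPM with siSCR and 74.6, 80.1 and 70.3 CPM with siMETTL3 (−0.88, edgeR adjusted p = 0.0115). The receptor phosphatase PTPRM changed by −0.85, the lipid kinase PIP4K2A by −0.74, the phospholipase PLCB1 by −0.76, LMBRD2 by −0.63 and SLFN5 by −0.62. These genes entered through the site and not through the rule for named genes. Of the 10 lower DEGs with CCGTACT, 5 were DEGs with the GC offset (LIFR, TMEM123, PIP4K2A, PTPRM and RRP1B), and COPS8, LMBRD2, TGS1, SLFN5 and PLCB1 were not.

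Over all genes with CCGTACT the median log2 fold change was −0.13, against 0.0045 for those without it. With the GC offset the medians were −0.10 and −0.0070, and 8 of the 49 lower DEGs under the offset held the sequence, 5 of them from the genes above. Over genes with CGTACTA the median was −0.20, and with the offset −0.032 against −0.0077. These genes had a median transcript GC content of 42.1%, against 49.3% for the others. In vehicle the medians of the holding genes were −0.055 for CCGTACT and −0.051 for CGTACTA. The matches describe letters in the annotated 3′UTR. The siRNA sequences were not used here.

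Beside METTL3, the list of m6A writers held 7 subunits of its complex and the separate methyltransferase METTL16. All 8 were measured and 0 were DEGs. METTL14, WTAP and VIRMA had log2 fold changes of −0.14, −0.14 and −0.15, and RBM15 and RBM15B, which guide the complex to RNA, 0.50 and 0.45 (edgeR adjusted p above the threshold for each). With the GC offset these 5 values became 0.12, −0.01, 0.08, 0.37 and 0.28. The median of the list, METTL3 included, moved from −0.14 to 0.08. Of 11 m6A readers and erasers measured, 0 were DEGs, with a median of −0.13 that became 0.05 with the GC offset.

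Of 32 androgen-induced genes, all measured, 3 were lower DEGs and 0 higher, against 0.42% and 0.28% of all genes, and the median log2 fold change was −0.20 (−0.15 with the GC offset), against 0.00 for all genes. ACSL3, which activates long-chain fatty acids, was 1368, 1514 and 1468 CPM with siSCR and 956, 964 and 943 CPM with siMETTL3. It was by far the most abundant of the 3, and the log2 fold change was −0.60 (standard error 0.10, edgeR adjusted p = 0.0118), or −0.34 with the GC offset. In vehicle ACSL3 was at 179 and 181 CPM, a log2 fold change of 0.02. The elongation factor ELL2 was 132, 176 and 176 CPM with siSCR and 87.8, 81.8 and 117 CPM with siMETTL3 (−0.76, edgeR adjusted p = 0.0372), or −0.50 with the offset. The cation channel TRPM8 fell from 16.1 ± 3.42 to 8.47 ± 2.67 CPM (−0.92, edgeR adjusted p = 0.049). With the offset TRPM8 was still a DEG, and ACSL3 and ELL2 were under 1.5-fold.

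The best-known androgen-induced genes did not pass. KLK3 and KLK2 had log2 fold changes of −0.05 and 0.03 with standard errors of 0.12 and 0.15, TMPRSS2 0.25 with 0.20 and FKBP5 −0.31 with 0.09 (edgeR adjusted p = 0.0715). MAF, a transcription factor, passed the test but not the fold threshold (−0.53). With the GC offset MAF was a DEG (−0.87, edgeR adjusted p = 0.000117), as it was in vehicle without the offset (−1.41, edgeR adjusted p = 0.00977). Of 11 steroid receptors and lineage factors measured, 0 were DEGs. FOXA1 and HOXB13 had log2 fold changes of 0.18 and 0.42. Of 7 UGT2B enzymes measured, only some of which inactivate androgens by glucuronidation, UGT2B28 was the only DEG. The median was −0.74, or −0.48 with the GC offset and −1.02 without siSCR replicate 1. UGT2B11, UGT2B15 and UGT2B10 had log2 fold changes of −0.86, −0.74 and −1.05, UGT2B4 −0.57 and UGT2B17 −0.085, and none of these passed. UGT2B7 was near absent, at 0.0164 and 0.163 CPM in mean with siSCR and siMETTL3. The UGT2B genes are near-identical paralogs, so fragments may be split or lost between them.

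Histone genes of the replication-dependent clusters give mRNAs without a poly(A) tail. Their list, drawn up by symbol, had 39 measured members, including pseudogenes and some replacement histone genes, and 3 were lower DEGs and 0 higher, against 0.42% and 0.28% of all genes. The fitted change was above 0 for 8 of the 39, against 50.5% of all genes. H2AC11 was 30.4, 45.1 and 37.96 CPM with siSCR and 18.8, 17.5 and 22.6 CPM with siMETTL3. The log2 fold change was −0.94 (edgeR adjusted p = 0.011). H3C10 changed by −0.72 and H4C9 by −0.87. These transcripts are GC-rich, and with the GC offset the 3 changes became −1.30, −1.07 and −1.20. The median of the list was −0.25, or −0.44 with the offset, and −0.37 in vehicle. Histone genes are a multigene family, so single assignments are uncertain.

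All 13 protein genes of the mitochondrial genome were lower in mean with siMETTL3, although 0 were DEGs. Their median log2 fold change was −0.36, or −0.28 with the GC offset and −0.53 without siSCR replicate 1. The share of fragments on mitochondrial genes was 7.08%, 9.73% and 9.69% in siSCR replicates 1 to 3 and 6.46%, 6.77% and 7.05% in the siMETTL3 replicates. siSCR replicate 1 was close to the siMETTL3 libraries in this share, as it was in the GC balance. Of 81 nuclear-encoded respiratory chain subunits measured, 0 were DEGs and the median was 0.10, and of 82 cytosolic ribosomal proteins 0 were DEGs with a median of 0.13.

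Immediate early genes and MAPK feedback genes had the highest median of the lists other than cell type markers, 0.44, with 18 of 24 members above 0, against 50.5% of all genes. KLF2 was the only DEG, at 2.30, 1.90 and 1.82 CPM with siSCR and 5.14, 3.89 and 4.74 CPM with siMETTL3. With the GC offset the median was 0.17, and in vehicle it was 0.48. JUN, JUND and KLF4 each had a log2 fold change of 0.70 and did not pass. Axon guidance genes, with 40 measured, included ROBO3 higher (0.84) and EPHA7 lower. Their median of 0.27 became −0.03 with the offset and 0.41 without siSCR replicate 1. Of 32 focal adhesion and matrix genes, the integrins ITGB4 (0.67) and ITGB5 (0.59) rose, and the median of 0.19 became −0.04. With the offset ROBO3 did not pass (edgeR adjusted p = 0.0627) and ITGB5 was under 1.5-fold (0.44).

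The cell cycle lists held 1 DEG. Thymidine kinase TK1 was 143, 144 and 156 CPM with siSCR and 254, 200.2 and 271 CPM with siMETTL3. The log2 fold change was 0.71 (edgeR adjusted p = 0.0174), or 0.39 with the GC offset, where it did not pass (0.0903). The other 36 DNA replication genes held 0 DEGs, as did 33 mitosis genes and 22 genes of the G1 and RB-E2F list, with medians of −0.01, −0.08 and 0.23. With the GC offset these medians were 0.01, 0.03 and 0.10. Without siSCR replicate 1 they were −0.14, −0.24 and 0.29. Among 21 p53 targets FAS and ZMAT3, an RNA-binding protein, fell (ZMAT3 from 39.5 ± 3.01 to 22.7 ± 1.46 CPM), against 0.42% of all genes, whereas the list median was 0.14. Neither was a DEG with the offset, where ZMAT3 was under 1.5-fold (−0.54). The metallothionein MT1X rose by 0.85 on the log2 scale, from 2.89 to 5.22 CPM, the only DEG of 13 metallothioneins and zinc transporters measured (median 0.08).

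For glycolysis enzymes and HIF-1 targets the list medians are given for both conditions, without a test. With R1881 the 17 glycolysis enzymes had a median of 0.15 and the 25 HIF-1 targets 0.06, both with 0 DEGs, while in vehicle the medians were 0.43 and 0.80, or 0.48 and 0.68 without siMETTL3 replicate 1. Lists of cholesterol synthesis (26 genes, median 0.17), the integrated stress response (20, 0.23), interferon and antigen presentation (28, 0.24), splicing regulators (31, 0.07), endoplasmic reticulum chaperones (18, 0.07), autophagy and lysosome (31, 0.03), amino acid transporters (21, −0.05), small RNA machinery (13, −0.11), ERBB receptors and ligands (9, −0.21), the insulin-like growth factor axis (11, 0.05), the epithelial sodium channel (5, 0.41) and reference genes (8, −0.03) held 0 DEGs each. In the fatty acid list of 26 genes ACSL3 was the only one, with a median of −0.08. Several of these medians also moved with the GC offset. It gave 0.04 for the integrated stress response, 0.08 for interferon and antigen presentation, 0.18 for the sodium channel and 0.20 for splicing regulators.

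**Figure D5:**
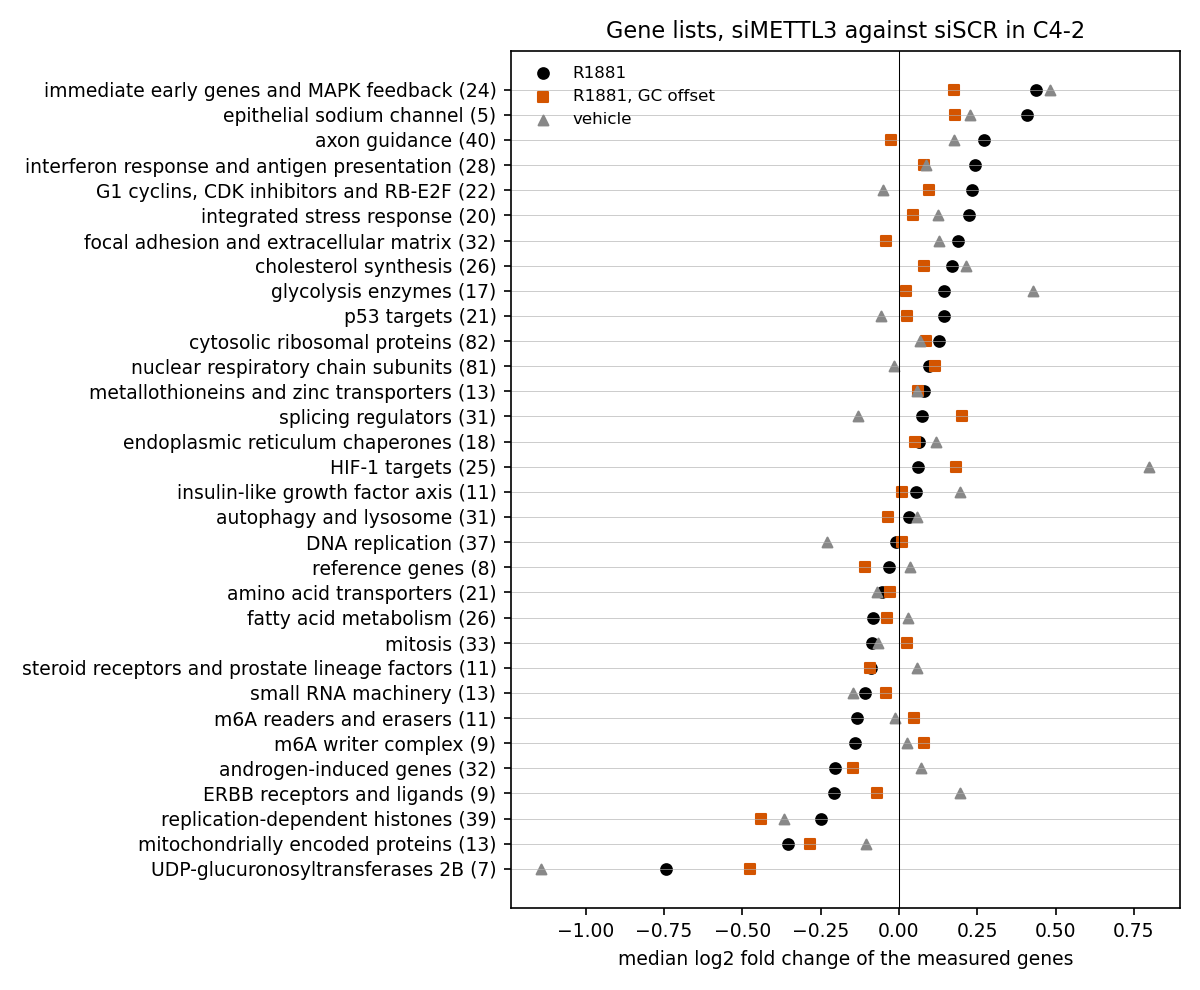
Median log2 fold change of the measured genes of each list (number in brackets) with R1881 (black), with the GC offset (orange) and in vehicle (grey). The R1881 medians run from −0.74 for the UGT2B enzymes to 0.44 for immediate early genes, and with the offset the median of axon guidance genes moves from 0.27 to −0.03 and that of histones from −0.25 to −0.44.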

How the data were processed

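Raw fragment counts of 24 libraries were used, of which 6 form the comparison. Per the file headers the authors counted paired fragments per gene with featureCounts 1.5.0-p1 on GRCh38 and the annotation of Ensembl release 83, with no strand option, so that a gene and an antisense partner cannot be told apart. Per the submitters' processing notes, reads were trimmed with Trim Galore and aligned with STAR. The deposited counts are not normalized. Genes were named from GENCODE release 44 (56558 of 60675 matched), which also gave GC content, length and 3′UTRs.

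The 12 libraries of LNCaP:C4-2 entered one fit, with 1 mean for each condition, in edgeR 4.0.16 (R 4.3.3) after filterByExpr (count minimum 10, total minimum 15) and TMM, with 8 residual degrees of freedom, using glmQLFit and glmQLFTest with Benjamini-Hochberg adjustment. DEGs had an adjusted p under 0.05 and a change of at least 1.5-fold. The cell line difference came from a fit of all 24 libraries. Standard errors were derived from the log2 fold change and its F statistic. The scripts were tested on simulated data.

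Named genes were METTL3, the 15 higher and 15 lower DEGs with the largest change among genes with a symbol, a mean of at least 1 CPM and groups that did not overlap, DEGs also called in vehicle, members of the 38 gene lists and DEGs past the cell line test. The members and lists were chosen with earlier results of these data known. Lists were described by counts and medians, without a test. Alternatives were DESeq2 1.42.0, other scalings and filters, the replicate number as a block, offsets for GC content or gene length (splines with 5 degrees of freedom per library) and leaving out each library. Library totals of 16798308 to 21030473 fragments limit the precision of genes under about 1 CPM. Floors cover counting error only. Some genes are not reported here.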

Additional observations from a re-analysis of the deposited data

Results flagged for a closer look

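In 6 DEGs of LNCaP:C4-2 the knockdown effect with R1881 differed between the cell lines by edgeR's test of the difference itself (22Rv1 minus LNCaP:C4-2, on the log2 scale). For F5 the difference was 2.92 (edgeR adjusted p = 4.31e-08). In 22Rv1 F5 ran from 12.5 to 15.1 CPM with siSCR and from 22.2 to 22.9 CPM with siMETTL3, here on library totals without TMM. The call held with each of the 6 LNCaP:C4-2 R1881 libraries left out in turn.

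The other 5 calls were near the threshold. EPHA7 differed by 1.22 (edgeR adjusted p = 0.0256) and passed with 3 of the 6 libraries left out. PART1 differed by 1.34 (edgeR adjusted p = 0.042) and passed with 1 of the 6. ALDH1A1 differed by 1.06 and TRIM47 by −1.27 (edgeR adjusted p = 0.041 and 0.042), each passing with 2 of the 6. PWWP3B differed by 2.45 (edgeR adjusted p = 0.0478) and passed with 0 of the 6; its siMETTL3 libraries held between 0.0541 and 0.32 CPM. Groups of 3 libraries are too small for the screen for outlying samples.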

How the results depend on the processing

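The DEG count of 115 was 39 with the replicate block, 76 with the GC offset, 70 with both, 776 with no filter on low counts, 520 from only the 6 R1881 libraries, 516 with DESeq2, 6 at an adjusted p under 0.01 and 1 with the threshold inside the test (glmTreat), and 102 to 165 under the other scalings, filters and the length offset. Leaving out 1 library gave 1 (siMETTL3 replicate 1) to 1497 (siSCR replicate 1), and 331 without siSCR replicate 1 under the GC offset. Without siMETTL3 replicate 1 in vehicle it was 797, and the 197 vehicle DEGs became 339 and the 18 shared ones 22. The METTL3 log2 fold change kept its direction; its edgeR adjusted p was 0.0706 with the replicate block (−0.57), and without 1 library the value ran from −0.65 to −0.52, not passing in 5 of 6. The interaction count of 0 became 351 with no filter, 4 with the GC offset, 25 with the GC offset and block, 1 with the length offset, 57 with DESeq2 and 5 under the GC offset without siSCR replicate 1. It stayed 0 with each library left out. The cell line count of 18 became 73 with no filter, 9 with the replicate block and 93 with DESeq2, and 2 to 25 without 1 library. The cause of these shifts was not tested. Whether the replicate numbers pair the libraries cannot be settled with 3 libraries per group. Deviations of same-numbered R1881 libraries correlated at 0.17, −0.089 and 0.11 across genes. Among the named DEGs no log2 fold change turned sign under the alternatives run. With the GC offset 26 of the 68 with a value lost the call, and with the replicate block 37 of 69. Leaving out siMETTL3 replicate 1, 2 or 3 lost 68, 60 or 33 of the 69. Leaving out siSCR replicate 2 or 3 lost 63 or 59, and leaving out siSCR replicate 1 lost 0.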
